A study of Mus musculus with 12 samples.

Results

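Unprocessed pseudogenes are copies of genes that arose by duplication of genomic DNA. They therefore keep introns and often lie beside the gene they were copied from, and most carry stop codons or shifts of the reading frame. Annotators call a copy transcribed when RNA evidence exists for it. Many of these copies sit in families that are known to expand quickly in the mouse, such as zinc finger genes, vomeronasal receptors and genes of the early embryo.

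The genes described here are the 208 unprocessed pseudogenes with a mean of at least 5 counts over the 12 libraries, out of 2893 genes of this kind and 55401 genes in all. The GENCODE M21 annotation called 149 of them unprocessed pseudogenes and 59 transcribed unprocessed pseudogenes, and pseudogenes with a Zscan4 symbol were left out. Of the 2893, 804 had at least 1 count. RNA was compared between 3 lines of mouse totipotent potential stem (TPS) cells, grown on feeder cells in VCED medium, and 3 lines of mouse extended pluripotent stem (EPS) cells, grown on feeder cells in LCDM medium. The study made TPS cells with a DOT1L inhibitor, an inhibitor of histone deacetylases, a retinoic acid receptor agonist and a GSK3 inhibitor. Each line was sequenced in 2 technical replicates, whose counts were summed. The labels give no strain, sex or passage, and do not link a TPS line to an EPS line.

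The rule used a mean over all libraries, so it admitted genes that were high in 1 group. Of the 208 members, 154 reached a mean of 5 counts in each group, 47 reached it through the TPS libraries alone and 7 through the EPS libraries alone. No count was found in any EPS library for 28 members, and every member had a count in a TPS library. The members lay on 21 chromosomes, with 37 on chromosome 12, 18 on chromosome 7, 17 on chromosome 17, 16 on chromosome 2 and 15 each on chromosomes 13 and X. A parent, meaning the protein-coding gene whose transcript matched the member best at 75% identity or more over at least 100 bases, was found for 203 members. These members had 138 different parents, and 149 of them lay on the chromosome of the parent. There were 18 families of at least 3 members, which held 108 members. Another transcript matched 100 members at 95% identity or more over at least 50% of the longer transcript, and these are called near-identical copies.

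The reading frame of the parent could be carried over at least 80% of its coding sequence onto 92 members. It had no break in 24 of them, and was broken by a frameshift first in 43 and by a stop codon first in 25. Only stops that the parent lacks were counted. TGA codons that a copy shares with a mitochondrial parent are stops in the nuclear code but were not counted as breaks. The following windows, from GRCm38, show the breaks that several members share or that separate a member from a close parent. Substitutions are numbered from the A of the parent's start codon.

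All 11 aligned copies of Hpcal1 carried the same stop at codon 52, C156G, where Hpcal1 itself reads TAC. Hpcal1 encodes a calcium sensor of the visinin-like family, and its copies lay between 17900734 and 23573981 of chromosome 12. The Hpcal1 window is chr12:17786294-17786356 on the plus strand, that of Gm9265 is chr12:20111284-20111346 on the plus strand, and that of Gm20474 is chr12:23573775-23573837 on the minus strand. The window of Gm6943, at chr12:19526113-19526175 on the plus strand, was identical to that of Gm9265. Capitals mark codon 52.
Hpcal1: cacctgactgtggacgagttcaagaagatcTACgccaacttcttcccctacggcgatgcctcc
Gm9265: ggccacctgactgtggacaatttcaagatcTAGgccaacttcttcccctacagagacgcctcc
Gm20474: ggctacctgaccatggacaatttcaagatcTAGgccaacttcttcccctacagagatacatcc

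A second stop divided these copies. Gm9237 and Gm9269 had TGA at codon 30, G90A, and Gm19786, Gm40853 and Gm49327 had TAG at codon 31, C93G, while the remaining 6 kept the parent's codon at both places. The windows are chr12:17786228-17786290 for Hpcal1 and chr12:20275096-20275158 for Gm9269 around codon 30, and chr12:17786231-17786293 for Hpcal1 and chr12:18559676-18559738 for Gm19786 around codon 31, all on the plus strand. Capitals mark the codon.
Hpcal1 codon 30: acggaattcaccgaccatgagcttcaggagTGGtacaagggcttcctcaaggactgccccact
Gm9269 codon 30: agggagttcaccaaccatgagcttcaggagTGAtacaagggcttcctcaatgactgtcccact
Hpcal1 codon 31: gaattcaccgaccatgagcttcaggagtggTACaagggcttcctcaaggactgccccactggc
Gm19786 codon 31: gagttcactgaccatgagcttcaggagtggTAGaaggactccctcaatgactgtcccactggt

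Zinc finger copies also shared a stop. Gm14405, Gm14416 and Gm1980 on chromosome 2 had TAA at codon 138 of Zfp966, C412T, which in Gm1980 followed a frameshift. The windows are chr2:175921373-175921435 on the minus strand for Zfp966 and chr2:177140345-177140407 on the plus strand for Gm14416. Znf41-ps, which was 99.7% identical to Zfp991 in the aligned coding sequence, had its own stop at codon 116, C346T. Its window is chr4:145827845-145827907, and that of Zfp991 is chr4:147178483-147178545, both on the plus strand. Capitals mark the codon in each pair.
Zfp966: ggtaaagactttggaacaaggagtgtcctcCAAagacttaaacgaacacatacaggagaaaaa
Gm14416: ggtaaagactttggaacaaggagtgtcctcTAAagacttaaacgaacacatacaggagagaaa
Zfp991: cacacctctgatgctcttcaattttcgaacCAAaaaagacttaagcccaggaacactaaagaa
Znf41-ps: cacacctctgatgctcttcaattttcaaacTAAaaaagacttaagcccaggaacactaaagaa

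Among members that were high in TPS lines, Gm8711 and Gm8701 on chromosome 10 lacked 2 bases at codon 11, Gm3176 on chromosome 5 held 1 extra base at codon 256, and BC080696 on chromosome 5 had TGA at codon 215, G645A. The Gm4302 window is chr10:100340857-100340918 and that of Gm8711 is chr10:100356238-100356297, both on the plus strand, with the bases that Gm8711 lacks in capitals in Gm4302. The A430089I19Rik window is chr5:94304366-94304425 and that of Gm3176 is chr5:94952857-94952917, both on the minus strand, with the extra base of Gm3176 in a capital. The BC061212 window is chr5:94068169-94068231 and that of BC080696 is chr5:94435799-94435861, both on the minus strand, with codon 215 in capitals.
Gm4302: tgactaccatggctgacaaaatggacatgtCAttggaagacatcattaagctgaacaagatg
Gm8711: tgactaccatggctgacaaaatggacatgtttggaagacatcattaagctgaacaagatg
A430089I19Rik: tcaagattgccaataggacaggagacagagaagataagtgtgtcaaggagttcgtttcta
Gm3176: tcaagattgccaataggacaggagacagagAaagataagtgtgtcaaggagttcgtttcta
BC061212: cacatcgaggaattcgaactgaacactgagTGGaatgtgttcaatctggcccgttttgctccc
BC080696: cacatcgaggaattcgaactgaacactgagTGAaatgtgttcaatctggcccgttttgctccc

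Other members high in TPS lines kept the parent's frame. Gm6346, Gm6348 and Gm6468 were 99.7 to 99.8% identical to Gm6502 in the coding sequence and had an ATG and no break over 99.8% of it. Gm4308 matched Gm4312 over all of its 289 codons at 100% identity, and Gm9124 matched Gm5286 over 357 codons at 99.8%. Fthl17-ps1 on chromosome X and Gm21451 on chromosome 14 were open over the aligned part as well. An open frame describes the sequence only.

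Promoter windows, 250 bases before to 50 after the gene start, were found in RefSeq (GRCm38.p6) for 32 member symbols. The 300 bases of Gm6346 (chr5:93920035-93920334, plus strand) and of Gm6348 (chr5:95585863-95586162, plus strand) were identical although the genes lie on different stretches of chromosome 5. The transcripts of these 2 genes were themselves 99.9% identical over 1443 bases. Whether these 2 windows are promoters or part of the copied gene was not tested, so their identity is not a finding about promoters. The windows of AA623943 (chr11:94817602-94817901, minus strand) and Gm11545 (chr11:94761133-94761432, minus strand) were 66.7% identical. They are shown for a shared run of 40 bases, marked in capitals, and the pair was chosen after the windows had been compared. All 4 copies of Tmem92 were higher in TPS lines, and the windows of Gm11543 and Gm11546, which were 75.7% identical to each other, do not hold this run. Those of AA623943 and Gm11543 were 44.2% identical. RefSeq starts these genes outside the GENCODE models used for counting coordinates.
Gm6346: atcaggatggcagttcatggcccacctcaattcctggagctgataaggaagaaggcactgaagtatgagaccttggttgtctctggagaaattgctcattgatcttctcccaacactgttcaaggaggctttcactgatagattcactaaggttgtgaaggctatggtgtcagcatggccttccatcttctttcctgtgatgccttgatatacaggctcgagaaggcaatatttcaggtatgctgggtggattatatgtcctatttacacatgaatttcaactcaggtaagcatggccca
AA623943: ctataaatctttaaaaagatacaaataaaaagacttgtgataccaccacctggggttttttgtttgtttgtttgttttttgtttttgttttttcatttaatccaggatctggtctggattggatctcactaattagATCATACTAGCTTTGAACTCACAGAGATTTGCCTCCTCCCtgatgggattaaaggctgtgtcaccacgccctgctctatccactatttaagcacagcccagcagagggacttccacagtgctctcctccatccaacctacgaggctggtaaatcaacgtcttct
Gm11545: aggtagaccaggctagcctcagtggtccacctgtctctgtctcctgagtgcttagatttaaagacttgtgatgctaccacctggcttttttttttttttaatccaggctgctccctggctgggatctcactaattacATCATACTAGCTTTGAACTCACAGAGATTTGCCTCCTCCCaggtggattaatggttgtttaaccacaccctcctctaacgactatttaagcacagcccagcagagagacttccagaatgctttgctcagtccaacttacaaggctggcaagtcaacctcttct

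The letters TATTTAA, searched on both strands, stood in the windows of AA623943, Gm11545 and 1 other member, Gm2808, and in 4.51% of all 32851 RefSeq promoters. The letters TATAAA, searched in the same way, stood in 6 of the 41 windows of these 32 symbols, that of AA623943 among them, and in 13.6% of all promoters. A match of letters is a description and not a binding site.

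Line totals ranged from 29877215 to 38466294 counts, and 3 counts in a line were worth 0.075 to 0.0979 CPM, the unit of level used here (counts scaled to the line's total times its TMM factor, with no correction for gene length). The members took 1.00 to 1.35% of a line's counts. Of 10 pluripotency markers none was at 0 in any line, and their summed level was 6509 to 8066 CPM in EPS lines and 3788 to 4179 CPM in TPS lines. Of 16 fibroblast markers 10 were higher in TPS lines and none was lower. The summed fibroblast level was 403, 1647 and 1726 CPM in EPS lines 1 to 3 and 7211, 3959 and 4648 CPM in TPS lines 1 to 3, with Fap at 0 in EPS line 1. The labels do not say that lines were cultured separately, so p-values measure the spread between these lines. In bulk RNA, fewer cells of a type and less RNA per cell cannot be told apart.

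The edgeR quasi-likelihood test with Benjamini-Hochberg adjustment was fitted to 17468 genes, and a threshold of 0.05 called 2509 of them (14.4%) higher in TPS cells and 1282 (7.34%) lower. It tested 202 members and called 43 higher and 6 lower. Of these 43, 37 had reached the mean of 5 through TPS libraries alone, so that their call is tied to how they were chosen, and so had 1 of the 6 called lower, through EPS libraries alone. Among the tested members that reached the mean in each group, 6 were higher and 5 lower, with a median log2 fold change of -0.07 beside -0.00 over all tested genes. Those 6 were Gm21451, Tmem181b-ps, Tmem181c-ps, Gm2792, Gm2808 and Fthl17-ps1. Some calls rest on few counts: 14 of the 43 did not pass the filter with 12 separate libraries or with technical run 1 alone, 10 with technical run 2 alone and 11 with a filter of at least 20 counts in 3 lines, Xlr5e-ps among them each time. Called members outside the naming rule in the methods are named below after their values had been seen. Every TPS line was above every EPS line in 57 tested members and below in 31, where the shares over all tested genes were 23.6% and 19.1%. These counts are tied to how members were chosen too. Of the 47 members that entered through TPS libraries alone, tested or not, 40 lay above and 0 below. Of the 154 that reached the mean in each group, 20 lay above and 30 below.

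**Figure D1:**
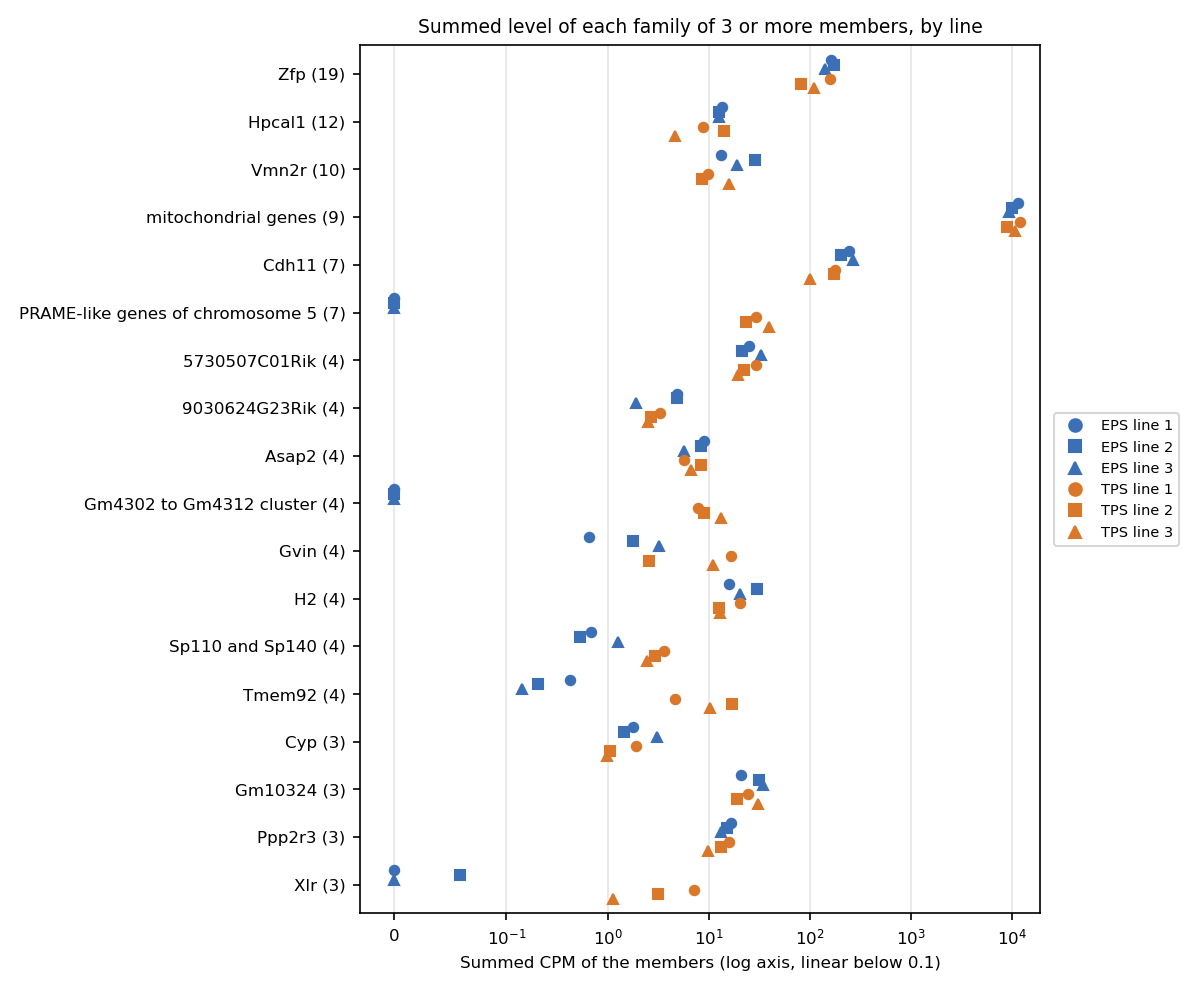
Summed CPM of the 18 families with 3 or more members, named by their parent genes with the number of members in brackets, in each of 3 EPS lines (blue) and 3 TPS lines (orange), on a log axis that is linear below 0.1. The PRAME-like family and the Gm4302 to Gm4312 cluster were at 0 in every EPS line, while the mitochondrial family was between 8893 and 11798 CPM in all lines.

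The highest CPM, which takes no account of length, belonged to 7 copies of mitochondrial genes that lie side by side at chr1:24611535-24616197, inside a nuclear copy of the mitochondrial genome. They held 90.6 to 92.7% of all member counts in a line, and together with 2 copies on chromosome 2 they formed a family of 9. None of the 9 was called in either direction by DESeq2 or the main edgeR test, or had an unadjusted p under 0.05 in edgeR. With 12 separate libraries, which counts technical replicates as samples, edgeR called Gm28439. Gm10925, a copy of the ATP synthase subunit gene mt-Atp6, had 2897, 2772 and 2914 CPM in EPS lines 1 to 3 and 2951, 2160 and 2972 CPM in TPS lines 1 to 3. The groups overlapped, and the log2 fold change was -0.09 ± 0.16 (SE). Gm28437, a copy of the cytochrome oxidase gene mt-Co3, had 2848, 2110 and 2128 CPM in EPS lines and 3044, 2275 and 2694 CPM in TPS lines, again with overlap. Gm28661 and Gm29216, copies of mt-Co2 and of part of mt-Co1, had means of 2443 ± 348 and 1696 ± 358 CPM (SD, n = 3) in EPS lines and 2495 ± 368 and 1647 ± 251 CPM in TPS lines.

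Of the 7 copies, 4 (Gm28661, Gm28437, Gm10222 and Gm28438) could not be separated from the mitochondrial genes by their counts. Gm28661 had 518062 counts over the 12 libraries and mt-Co2 516514, and the 2 never differed by more than 0.366% in a library. Gm28437 and mt-Co3 differed by at most 0.596%. Gm10222 and mt-Nd4l differed by at most 1.03%, which was less than sampling noise, with a chi-square of 0.0238 per library. With sequences alike and counts this close, the place that the RNA came from cannot be told apart. Gm10925 and mt-Atp6 did not follow this, with 580318 and 338248 counts, and Gm28439 held 101980 counts beside 200111 of mt-Nd4. Gm29216, which covers part of mt-Co1, had a log2 ratio of CPM to that gene of -1.82 ± 0.19 in EPS lines and -1.90 ± 0.06 in TPS lines (SD, n = 3). Gm28439 and Gm10222 also overlap each other on the same strand.

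The 2 copies on chromosome 2 differ more from the mitochondrial genes. Gm13341 was 95.9% identical to mt-Co2 and had 2.61, 3.53 and 1.79 CPM in EPS lines and 2.90, 3.08 and 3.46 CPM in TPS lines. Gm13340 was 97.6% identical to mt-Co1 and had 0.979, 1.03 and 0.854 CPM in EPS lines and 1.4, 0.803 and 0.89 CPM in TPS lines. It carries TGA at codon 302, C904T, which the mitochondrial code reads as tryptophan and the nuclear code as stop. TGA codons that Gm13340 shares with mt-Co1 were not counted, so codon 302 need not be its first stop in the nuclear code. The windows are chrM:6201-6263 on the plus strand and chr2:22588712-22588774 on the minus strand, with the codon in capitals.
mt-Co1: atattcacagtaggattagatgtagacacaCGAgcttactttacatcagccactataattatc
Gm13340: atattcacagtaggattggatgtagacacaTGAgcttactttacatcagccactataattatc

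Equal counts were also seen between members. Gm2436 and Gm2446, copies on chromosome 12 of the phosphatase subunit gene Ppp2r3c, had 1306 and 1302 counts and were equal in 9 of 12 libraries. Gm8701 and Gm8723 on chromosome 10 had 189 and 188 counts, each with 59 counts in TPS line 1. Of 204 near-identical pairs compared, 3 had a chi-square per library under 0.1, and such a pair is not 2 independent measurements.

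The clearest separation between the groups was in members with no count in any EPS line. Of the 28 such members, 26 were tested. Because they entered through TPS libraries alone, the values below describe them and are not evidence on pseudogenes as a class. Folds for them are lower bounds against 3 counts in a line, set at EPS line 1 where 3 counts weigh most (0.0979 CPM). The bound covers counting error only, and sequenced reads are not independent molecules.

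**Figure D2:**
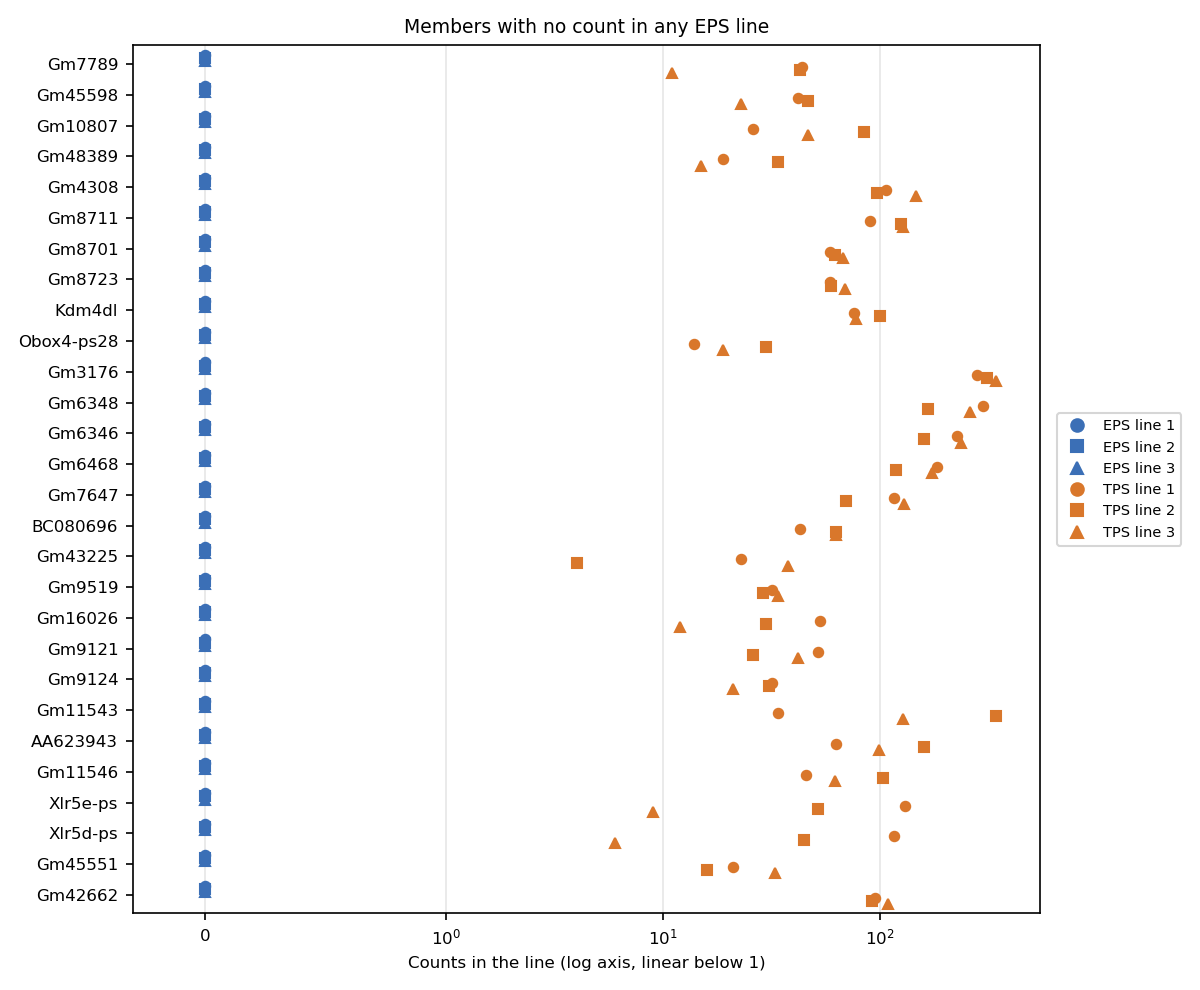
Counts in each line for the 28 members with no count in any EPS line, on a log axis that is linear below 1, with EPS lines in blue and TPS lines in orange. All EPS points lie at 0, and TPS counts run from 4 for Gm43225 in TPS line 2 to 345 for Gm3176 in TPS line 3.

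Copies of PRAME-like genes, a family of leucine-rich repeat proteins expressed in germ cells and early embryos, formed the largest group. All 7 lay on chromosome 5 between 93694994 and 95605308, 6 were tested and all 6 were higher in TPS lines. Gm3176, at chr5:94951537-94954134, had 0 counts in each EPS line and 282, 312 and 345 counts in TPS lines 1 to 3. Its level of 8.70 ± 2.03 CPM (SD, n = 3) was at least 88.8-fold higher, with an adjusted p of 0.00124 in edgeR. Its parent A430089I19Rik, 99.8% identical, had 418, 519 and 544 counts in TPS lines and none in EPS lines.

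Gm6346, Gm6348 and Gm6468 share the parent Gm6502. Gm6348 had 301, 168 and 262 counts in TPS lines, Gm6346 had 228, 161 and 237, and Gm6468 had 184, 119 and 174. In all 3 genes TPS line 2 was the lowest, as it was in Gm6502 with 273, 180 and 255 counts. Gm6348 was at least 68.7-fold higher, Gm6346 at least 59.2-fold and Gm6468 at least 45.0-fold. With an identity of 99.7% or more to the parent, the division of reads between these genes is uncertain.

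Gm7647 had 117, 70 and 130 counts in TPS lines and was at least 30.2-fold higher. BC080696, the copy with the stop shown above, had 43, 63 and 63 counts and was at least 16.0-fold higher. Gm43225, whose frame loses 5 bases at codon 279 of Gm6351, had 23, 4 and 38 counts and did not pass the filter for testing in edgeR, while DESeq2, run without that filter, called it. Gm42662 lies in the same stretch at chr5:95425935-95428628 and had 95, 92 and 110 counts, at least 28.1-fold higher (adjusted p 0.00242 in edgeR). No parent was found for it.

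On chromosome 10, 4 single-exon copies of the Gm4302 to Gm4312 cluster lay between 100330540 and 100377279, and all were at 0 in EPS lines and higher in TPS lines. Gm4308 had 107, 97 and 147 counts in TPS lines and was at least 33.6-fold higher. The protein-coding genes Gm4301 and Gm4312, each 100% identical to Gm4308 over 914 bases, had 249 and 199 counts over the 12 libraries. The division of reads between these genes is uncertain. Gm8711, with the 2-base deletion shown above, had 90, 126 and 128 counts and was at least 32.6-fold higher, while its parent Gm4302 had 28, 43 and 24 counts. TPS line 3 was the highest for both members but not for Gm4302. Gm8701 and Gm8723, the pair with near-equal counts, were both at least 17.8-fold higher.

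Copies of Tmem92, which encodes a transmembrane protein, lie close to each other at chr11:94756976-94828930. All 4 were higher in TPS lines and 3 were at 0 in EPS lines. Gm11543 had 34, 344 and 129 counts in TPS lines, with TPS line 2 far above line 1, and was at least 47.2-fold higher with an adjusted p of 0.0118 in edgeR. AA623943 had 63, 161 and 99 counts and was at least 30.3-fold higher, and Gm11546 had 46, 104 and 62 counts and was at least 19.8-fold higher. Tmem92 itself had 225, 608 and 403 counts and none in EPS lines, so line 2 was the highest and line 1 the lowest for the parent and these 3 copies. Gm11545 was the exception, with 13, 7 and 5 counts in EPS lines and 43, 48 and 33 in TPS lines. Its log2 fold change was 2.12 ± 0.49 (adjusted p 0.0216 in edgeR). That call was lost when any line other than EPS line 1 was left out, and with the line-number block. Gm11545 also reached the mean of 5 through TPS libraries alone, so its call is tied to how members were chosen.

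The other members at 0 in EPS lines came from several families. Kdm4dl, a copy of the histone H3 lysine 9 demethylase gene Kdm4d, had 1.90, 2.62 and 2.48 CPM in TPS lines and was at least 23.8-fold higher. Kdm4d had 1, 2 and 4 counts in EPS lines and 10, 8 and 0 in TPS lines and was not tested, so the copy was called where its parent could not be. Gm10807, a copy of the double homeobox gene Duxf3 on chromosome 10, had 26, 85 and 47 counts and was at least 14.8-fold higher, and Duxf3 followed the same order with 113, 241 and 172 counts.

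Gm9121 and Gm9124, copies of Spop-like genes on chromosome 3, had 52, 26 and 42 counts and 32, 31 and 21 counts and were at least 11.3-fold and 7.73-fold higher. Spop encodes an adaptor of a ubiquitin ligase. Gm9519, at chr7:17637479-17650345, had 32, 29 and 34 counts and was at least 8.96-fold higher, whereas its best match, the pregnancy-specific glycoprotein gene Psg29, had no count in any line and was only 75.2% identical. Gm7789, a copy of the meiotic kinase gene Aurkc, had 44, 43 and 11 counts and was at least 8.72-fold higher. Aurkc had 9, 9 and 3 counts in EPS lines and 1068, 797 and 401 in TPS lines, and TPS line 3 was the lowest for both genes.

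Gm45598, at chr7:11380620-11387584, had 42, 47 and 23 counts and was at least 10.2-fold higher. It was the only member called higher whose parent was tested and not called. That parent, Cd2ap, which encodes an adaptor of the actin cytoskeleton, matched over only 295 bases at 83.4% and had 128, 119 and 121 CPM in TPS lines and 132, 184 and 141 CPM in EPS lines. Gm45551, in the neighbouring stretch of chromosome 7, had 21, 16 and 33 counts and was at least 6.77-fold higher. Its parent was Zscan4f, 97.3% identical over 450 bases, which had 2, 3 and 0 counts in EPS lines and 3619, 3992 and 4296 counts in TPS lines, and how far the 2 genes share reads was not tested. Gm48389, a copy of Gm2075 on chromosome 12, had 19, 34 and 15 counts and was at least 6.24-fold higher. Its relative Gm8607 had 2 counts in EPS line 3 and 55, 62 and 83 counts in TPS lines, a ratio of 90.6 with a 95% exact counting interval of 24.8 to 753.

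Copies of Sp110 and Sp140, which encode nuclear body proteins induced by interferon, gave 2 higher calls among 4 members, beside 14.4% of all tested genes. Both called members reached the mean of 5 through TPS libraries alone, so these calls are tied to how members were chosen. Gm16026 had no EPS count and 53, 30 and 12 counts in TPS lines, at least 8.45-fold higher. Gm15753 had 2, 4 and 0 counts in EPS lines and 23, 26 and 11 in TPS lines (log2 fold change 3.07 ± 0.78, adjusted p 0.0298 in edgeR). That call was lost without any single TPS line, without EPS line 1, without EPS line 3 and with the line-number block. Gm6264, the member of this family with the highest mean, had 10, 7 and 26 counts in EPS lines and 47, 37 and 36 in TPS lines. Its TPS lines were all above its EPS lines, but the adjusted p was 0.101 in edgeR. It was called without EPS line 3 and with 12 separate libraries.

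Chromosome X held 15 members, of which 13 were tested and 9 were higher in TPS lines, beside 14.4% of all tested genes. All of the 9 but Fthl17-ps1 had entered through TPS libraries alone. Their calls are tied to how members were chosen, and the count is not evidence on chromosome X. Many parents on this chromosome are known for expression in testis, ovary or placenta. Fthl17-ps1, a copy of ferritin heavy chain-like genes, had 7, 42 and 2 counts in EPS lines and 995, 384 and 422 in TPS lines. The groups did not overlap, and the log2 fold change was 4.97 ± 0.92 (adjusted p 0.0107 in edgeR). Mageb10-ps, a copy of the MAGE gene Mageb4, had 2, 12 and 2 counts in EPS lines and 86, 197 and 109 in TPS lines (4.45 ± 0.74, adjusted p 0.00749). Gm41, which also matched a MAGE gene, had 0, 5 and 0 and then 181, 140 and 67 counts (6.01 ± 0.96, adjusted p 0.0069). In all 3 genes EPS line 2 was the highest EPS line.

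Gm15109, a copy of Ott with a 2-base deletion at codon 262, had 1 count in each EPS line and 191, 74 and 39 in TPS lines, a ratio of 91.8 with an interval of 31.1 to 448. Copies of Rhox7a, a homeobox gene of the reproductive Rhox cluster, were Rhox7-ps1, with 2 EPS counts and 35, 23 and 16 TPS counts, and Rhox7-ps2, with 2 EPS counts and 42, 17 and 17 TPS counts. Their ratios were 33.5 (8.96 to 282) and 34.4 (9.21 to 289). Gm6858, a copy of Gm18336, had 0, 7 and 2 counts and then 42, 39 and 11 (3.13 ± 0.89, adjusted p 0.0423 in edgeR). This call was lost without any single TPS line, without EPS line 1, without EPS line 3 and with the line-number block.

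The Xlr copies were members of an X-linked family first described in lymphocytes. Xlr5e-ps, at chrX:74823336-74830149 with a stop at codon 126 (C378G), had no EPS count and 131, 52 and 9 counts in TPS lines, at least 16.7-fold higher with an adjusted p of 0.0187 in edgeR, and was not tested with either technical run alone. Xlr5d-ps had 117, 45 and 6 counts in the same order and did not pass the filter in edgeR, while DESeq2 called it. Their parents fell in the same order, with 1313, 393 and 114 counts for Xlr5b. Gm14599 had 2 EPS counts and 41, 24 and 21 TPS counts, a ratio of 39.0 (10.5 to 327).

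Gm21451 had the highest CPM among the members that rose and had clear counts in EPS lines. It is a copy at chr14:69390854-69480287 of Loxl2, an enzyme that cross-links collagen, and it was 100% identical over 2348 aligned bases. It had 9.30, 21.1 and 14.5 CPM in EPS lines 1 to 3 and 91.1, 85.5 and 52.1 CPM in TPS lines 1 to 3. Its lowest TPS line was above its highest EPS line, with a log2 fold change of 2.35 ± 0.34 (adjusted p 0.00489 in edgeR). Loxl2 changed by 2.38 ± 0.33 and the log2 ratio of Gm21451 to Loxl2 was -1.29 ± 0.07 in EPS lines and -1.34 ± 0.03 in TPS lines. The summed fibroblast markers were also above every EPS line in every TPS line, with 3959 to 7211 CPM against 403 to 1726 CPM, and their part in this result was not tested. Gm21451 overlaps Gm16867 on the opposite strand, and the use of strand in counting is not given in the sources used here.

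A duplicated stretch of chromosome 17 between 6.3 and 6.7 Mb held 5 members, 1 of which (Gm29721) had entered through TPS libraries alone. All 5 were higher, beside 14.4% of all tested genes. Each is a copy of 1 of 3 neighbouring genes on that chromosome: Tmem181a (a transmembrane protein), Tulp4 (a tubby-like protein) and Sytl3 (a synaptotagmin-like protein of vesicle traffic). Tmem181b-ps, at chr17:6438524-6467022, had 4.11, 4.03 and 6.43 CPM in EPS lines and 33.0, 26.7 and 12.9 CPM in TPS lines (log2 fold change 2.32 ± 0.38, adjusted p 0.00757 in edgeR). Tmem181c-ps had 0.620, 0.530 and 0.712 CPM and then 4.30, 4.09 and 1.81 CPM (2.45 ± 0.44, adjusted p 0.00966). TPS line 1 was the highest and TPS line 3 the lowest in both, and no TPS line fell into the EPS range.

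Gm2792, at chr17:6339604-6361848, had 1.21, 2.88 and 4.41 CPM in EPS lines and 20.2, 12.0 and 12.8 CPM in TPS lines (2.40 ± 0.47, adjusted p 0.0132 in edgeR). Gm2808, at chr17:6511791-6528713, had 1.31, 3.74 and 5.09 CPM and then 30.3, 14.4 and 14.1 CPM (2.53 ± 0.53, adjusted p 0.0161). Both kept the order of EPS lines seen in Tulp4, with 9.57, 22.6 and 36.9 CPM, which was also the order of the summed fibroblast markers, and the part of those cells was not tested. Gm29721, the copy of Sytl3, had 0, 7 and 2 counts in EPS lines and 95, 51 and 11 in TPS lines (3.87 ± 1.02, adjusted p 0.0337). It reached the mean of 5 through TPS libraries alone, so this call is tied to how members were chosen. The call of Gm2808 was lost without EPS line 2, and that of Gm29721 without TPS line 1, TPS line 2, EPS line 1 or EPS line 3. Both calls were also lost with the line-number block.

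**Figure D3:**
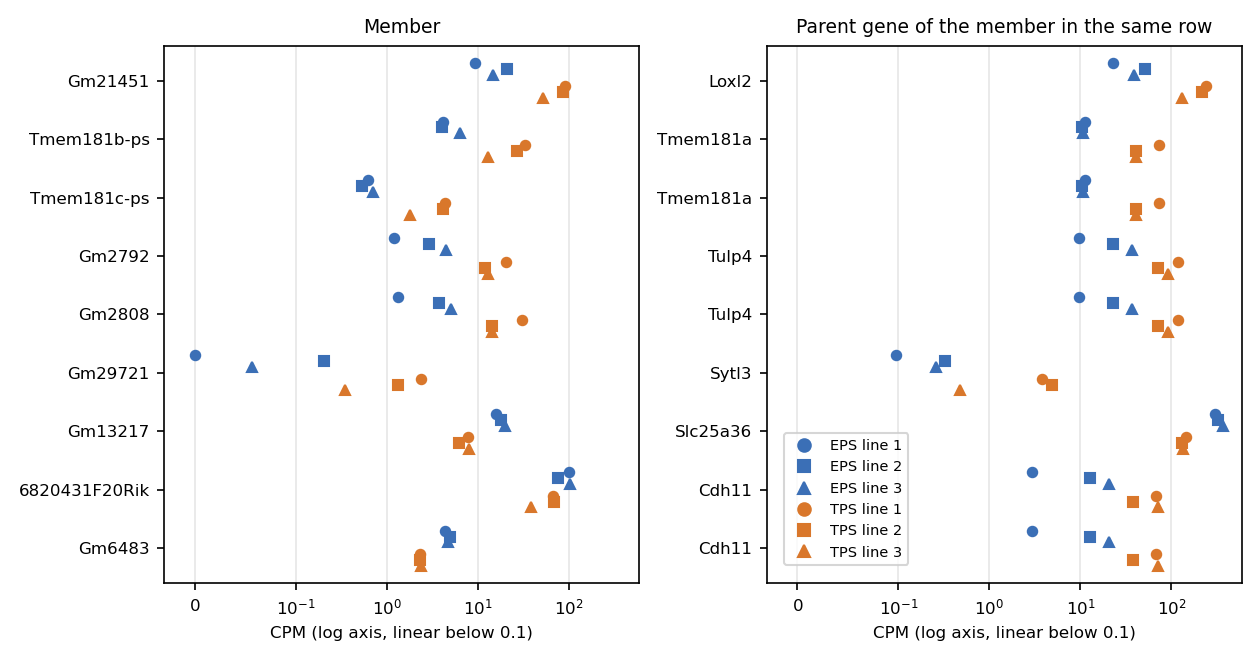
CPM of 9 members (left) and of the parent gene of each (right, same row) in 3 EPS lines (blue) and 3 TPS lines (orange), on log axes that are linear below 0.1. The Loxl2 copy Gm21451 and the chromosome 17 copies lie higher in TPS lines like their parents, Gm13217 lies lower like Slc25a36, and both Cdh11 copies lie lower in TPS lines while Cdh11 lies higher.

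The 6 members called lower were spread over 5 chromosomes. Gm13217, at chr2:9041124-9042484, is a copy of Slc25a36, a carrier that moves pyrimidine nucleotides into mitochondria. It had 15.6, 17.7 and 19.8 CPM in EPS lines and 7.87, 6.12 and 7.88 CPM in TPS lines, with every TPS line below every EPS line. The log2 fold change was -1.28 ± 0.21 (adjusted p 0.00762 in edgeR). Slc25a36 on chromosome 9 also changed by -1.28, with 298, 326 and 372 CPM in EPS lines and 145, 130 and 134 CPM in TPS lines.

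H2-M6-ps, a copy of class I histocompatibility genes at chr17:36969195-36971396, had 7.44, 8.01 and 8.0 CPM in EPS lines and 3.92, 2.51 and 2.99 CPM in TPS lines (-1.31 ± 0.28, adjusted p 0.0158 in edgeR). The groups were apart, and the call was lost without TPS line 3. The other 4 calls were less firm and were lost when any single line was left out. Vmn2r-ps106, a vomeronasal receptor copy, had 2.51, 4.00 and 2.31 CPM and then 1.5, 0.985 and 0.953 CPM (-1.36 ± 0.38, adjusted p 0.0423). Gm49327, a Hpcal1 copy, had 2.09, 1.53 and 1.42 CPM and then 0.450, 0.829 and 0.667 CPM (-1.37 ± 0.40, adjusted p 0.0449). Gm5373, at chr8:71824641-71857281, had 24, 15 and 20 counts and then 4, 8 and 7 counts (-1.75 ± 0.49, adjusted p 0.0412). It reached the mean of 5 through EPS libraries alone, so this call is tied to how members were chosen.

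The sixth was Gm6483, 1 of 7 copies of Cdh11 on chromosome 8. Cdh11 is a cadherin of mesenchymal cells. Gm6483 had 4.31, 4.89 and 4.75 CPM in EPS lines and 2.30, 2.31 and 2.35 CPM in TPS lines, with very little spread within a group (log2 fold change -1.0 ± 0.27, adjusted p 0.0348 in edgeR). Cdh11 went the other way, with 2.94, 12.8 and 20.6 CPM in EPS lines and 67.3, 37.3 and 71.9 CPM in TPS lines (2.28 ± 0.62, adjusted p 0.0364). The call on Cdh11 was lost without TPS line 1, TPS line 3 or EPS line 2 and with the line-number block. Cdh11 rose with the fibroblast markers, whose summed level was 403 to 1726 CPM in EPS lines and 3959 to 7211 CPM in TPS lines, and their part in the ratio of copy to parent was not tested.

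The other Cdh11 copies shared this direction without passing the main test in edgeR, while DESeq2 called Gm21092 and Gm3365 lower as well. In edgeR, 6820431F20Rik was called with no filter on low counts and with 12 separate libraries, and 2610005L07Rik with 12 separate libraries. The family summed to 245, 204 and 268 CPM in EPS lines and 178, 173 and 99.0 CPM in TPS lines. In 6 of the 7 copies every TPS line was below every EPS line, beside 19.1% of all tested genes. The median log2 fold change of the 7 copies was -0.68. The highest, 6820431F20Rik at chr8:20262613-20297432, had 99.4, 76.0 and 103 CPM in EPS lines and 67.6, 68.3 and 38.4 CPM in TPS lines (-0.68 ± 0.24, adjusted p 0.0836 in edgeR). Next was 2610005L07Rik at chr8:20385782-20424814, with 79.7, 63.4 and 89.9 CPM and then 60.3, 60.2 and 30.5 CPM (-0.63 ± 0.27, adjusted p 0.141). TPS line 3 was the lowest of all lines in both. The 7 copies were 92.8 to 95.9% identical to Cdh11 in the aligned part, and they are also close to each other, so they are not independent measurements.

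Hpcal1 copies formed the largest family on chromosome 12, with 12 members, of which Gm49327 was lower and none was higher. They summed to 13.5, 12.7 and 12.5 CPM in EPS lines and 8.84, 14.3 and 4.64 CPM in TPS lines, so the groups overlapped and TPS line 3 was the lowest. Gm49329, the copy with the highest mean, had 4.02, 3.06 and 2.62 CPM and then 2.75, 2.85 and 1.33 CPM (log2 fold change -0.48 ± 0.39). Gm9265 and Gm6943, which share the stop window shown above, were at 60 and 39 counts in EPS line 2, 67 and 47 counts in TPS line 2 and 5 and 3 counts in TPS line 3. Hpcal1 itself was at 29.3, 31 and 15.4 CPM in EPS lines and 35.0, 50.3 and 35.0 CPM in TPS lines and was not called (adjusted p 0.138 in edgeR). The whole stretch, from 17882197 to 23784131, held 30 members with several parents. Of these, 1 was lower, none was higher and the median log2 fold change was -0.17. Over all tested genes 7.34% were lower and 14.4% higher.

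Other families of that stretch had no call in edgeR or DESeq2. Gm40881, the highest copy of 5730507C01Rik, had 9.96, 7.15 and 15.1 CPM in EPS lines and 9.67, 8.08 and 6.42 CPM in TPS lines. Gm38699, the highest copy of Gm10324, had 11.3, 14.5 and 21.5 CPM and then 12.9, 10.9 and 15.7 CPM. The groups overlapped in both. Gm49326, the highest copy of the Arf GTPase-activating gene Asap2, had 2.19, 3.24 and 1.74 CPM and then 3.07, 2.57 and 2.89 CPM, while Asap2 fell with a log2 fold change of -0.72 ± 0.19 (adjusted p 0.0329 in edgeR). The call on Asap2 was lost when any single line other than EPS line 3 was left out, and also with library size alone, with technical run 2 alone and with the line-number block. The ratio of Gm49326 to Asap2 was higher in every TPS line.

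Of 10 copies of Vmn2r genes, pheromone receptors of the vomeronasal organ, all on chromosome 13, Vmn2r-ps106 was lower and none was higher. Over all tested genes 7.34% were lower and 14.4% higher. The median log2 fold change of the 10 copies was -0.98. Every TPS line was below every EPS line in 3 of the 10, beside 19.1% of all tested genes. Some of these copies are near-identical to each other, so they are not independent measurements. The family summed to 13.2, 28.6 and 19 CPM in EPS lines and 9.74, 8.50 and 15.8 CPM in TPS lines, which overlapped through TPS line 3 and EPS line 1. Vmn2r-ps104, the highest, had 4.93, 19.4 and 9.16 CPM and then 3.55, 5.03 and 12.9 CPM (-0.65 ± 0.61). Vmn2r84, its parent on chromosome 10, had no count in any line, and Vmn2r11, the parent of Vmn2r-ps106, had 10 counts in all.

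The zinc finger copies were the largest family, with 19 members on 7 chromosomes, of which none was called in either direction by edgeR (median log2 fold change -0.02). In edgeR 3 had an unadjusted p under 0.05, and DESeq2 called 2 of these, Zfp783 and Znf41-ps. Many genes of such clusters encode repressors that bind repeats. Znf41-ps, at chr4:145825237-145829942, had 87.7, 60.3 and 64.7 CPM in EPS lines and 55.2, 20.1 and 25.4 CPM in TPS lines. Every TPS line was below every EPS line, but the adjusted p in edgeR was 0.0748 for a log2 fold change of -1.08 ± 0.37. Znf41-ps was also called with no filter on low counts, with 12 separate libraries, with the line-number block and without TPS line 1. The fit of 12 libraries counts technical replicates as samples, and lower calls over all genes rose under it from 1282 to 3610. Zfp991, 99.5% identical over the transcript, behaved alike at -0.97 ± 0.34 (adjusted p 0.0809), and how far the 2 genes share reads was not tested. Their counts differed, with 10795 for Znf41-ps and 15468 for Zfp991 over the 12 libraries and a difference of up to 56.5% in a library. Zfp264 on chromosome 7, chosen after its values had been seen, had 0, 22 and 46 counts in EPS lines and 212, 266 and 87 in TPS lines (2.92 ± 1.00, adjusted p 0.0744).

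The remaining families of 3 or more had no member called by edgeR, apart from H2-M6-ps, while DESeq2 also called H2-T-ps and the Gvin copies Gm8979 and Gm8995. Gm10499, the highest copy of class I H2 genes, had 5.65, 17.8 and 9.90 CPM in EPS lines and 10, 5.57 and 5.82 CPM in TPS lines. Copies of Gvin genes, large GTPases induced by interferon, summed to 0.653, 1.80 and 3.22 CPM in EPS lines and 16.4, 2.54 and 11.0 CPM in TPS lines, with TPS line 2 inside the EPS range. The highest of them, 9130208D14Rik, had 0, 19 and 36 counts and then 211, 42 and 149 counts (2.79 ± 1.06, adjusted p 0.099 in edgeR). It was called with no filter on low counts and with 12 separate libraries. Copies of cytochrome P450 genes were low, with Cyp2d67-ps at 9, 16 and 76 counts in EPS lines and 3, 19 and 2 in TPS lines. Of the 4 copies of 9030624G23Rik, the highest, 3110053B16Rik, had 1.80, 1.94 and 0.968 CPM and then 1.10, 1.19 and 1.11 CPM, and it overlaps Zfp125 on the same strand.

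Dppa5b and Dppa5c, copies of the pluripotency-associated gene Dppa5a on chromosome 9, were not called while Dppa5a was lower in TPS lines (log2 fold change -1.03 ± 0.19, adjusted p 0.0108 in edgeR). Dppa5c had 2.42, 2.83 and 3.67 CPM in EPS lines and 1.10, 2.18 and 0.604 CPM in TPS lines (-1.19 ± 0.50, adjusted p 0.123). Its TPS lines were all below its EPS lines. Dppa5b had 1.27, 1.03 and 2.28 CPM and then 0.924, 2.10 and 0.318 CPM (-0.45 ± 0.66), with overlap.

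Some members stood out in 1 line rather than in a group. With at least 50 counts in that line and at least 5 times the next line of its group, a rule chosen after the values were seen, there were 8. EPS line 2 was the high line for 6 of them. Gm11427, a copy of Schlafen genes on chromosome 11, had 2, 172 and 4 counts in EPS lines and 223, 104 and 284 in TPS lines, so that EPS line 2 lay among the TPS lines. Gm45351, Gm20482 and 2810047C21Rik1, copies of Zfp772 on chromosome 7, had 105, 96 and 80 counts in EPS line 2 and at most 9 in either of the other EPS lines. They had 177, 143 and 124 counts in TPS line 1. Gm9257 had 5, 75 and 4 counts in EPS lines and 57, 13 and 29 in TPS lines.

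**Figure D4:**
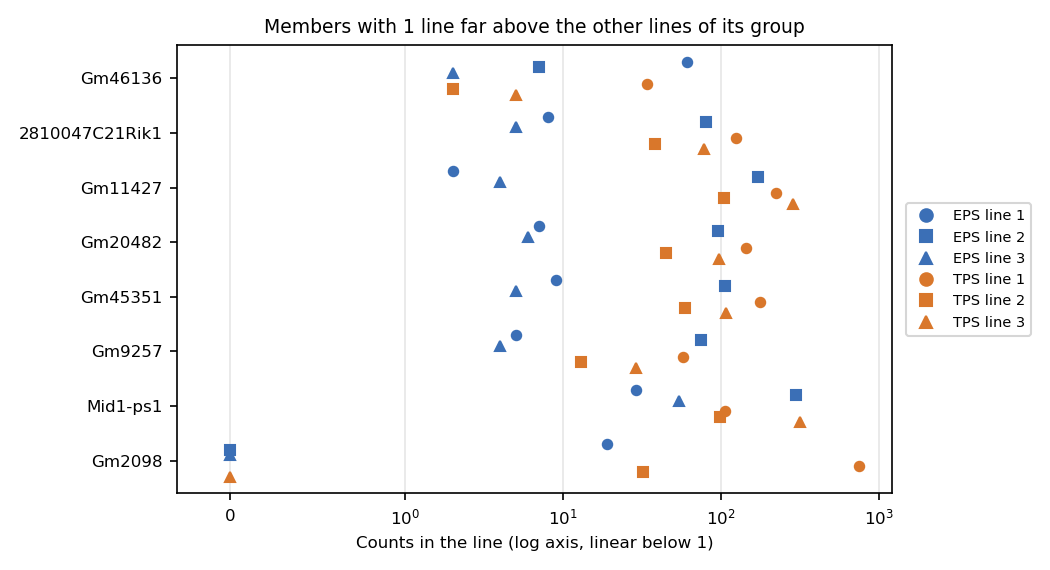
Counts in each line for the 8 members with 1 line far above the others of its group, on a log axis that is linear below 1, with EPS lines in blue and TPS lines in orange. EPS line 2 lies apart from the other EPS lines in 6 members, EPS line 1 in Gm46136 and TPS line 1 in Gm2098.

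Chromosome Y held 4 members, none of them called by edgeR or DESeq2 or with an unadjusted p under 0.05 in edgeR. Gm2098, a copy of the ubiquitin-activating enzyme gene Uba1y, had 19, 0 and 0 counts in EPS lines and 749, 32 and 0 in TPS lines. TPS line 1 stood far above the rest, and Uba1y had 1521 counts in that line. Summed CPM of 4 other Y-linked genes was 51.4, 3.24 and 6.49 in EPS lines 1 to 3 and 127, 14.7 and 10.4 in TPS lines 1 to 3, so line 1 was the highest of each group there too, and the part of Y-linked RNA of feeder cells or of the lines was not tested. Mid1-ps1, a copy of the ubiquitin ligase gene Mid1, had 29, 297 and 54 counts in EPS lines and 106, 99 and 316 in TPS lines, and Mid1 on chromosome X was highest in the same 2 lines with 935 and 1009 counts. Gm20775, a copy of the DNA repair gene Rmi1 at chrY:10641257-10643107, was steady at 8.92 to 14.3 CPM in all lines. Its identity to Rmi1 on chromosome 13 was 99.7%, so these counts do not by themselves place the RNA on chromosome Y.

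Members were set beside their parents. Of the 43 members called higher, 37 had a parent that was called higher as well, 1 had a parent that was tested and not called, 4 had a parent that was not tested and 1 had no parent. Of the 6 called lower, 1 parent was lower (Slc25a36), 1 was higher (Cdh11, a call that leaving out a line could end), 2 were not called and 2 were not tested. Among all 138 parents, 33 were higher and 6 lower. The members were chosen partly on this contrast, so these counts describe the list.

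The likeness of a member and its parent fell with their identity. Over the 140 members with at least 4 counts in EPS lines for both genes, the median difference of log2 fold changes was 0.10 at an identity of 98% or more (n = 50), 0.32 at 90 to 98% (n = 54) and 0.72 below 90% (n = 36). Pearson's r across members was 0.89, 0.70 and 0.19 and Spearman's rho 0.80, 0.43 and 0.11 in these classes. Members that share a parent share a point on the axis, and close copies may share reads, so these are descriptions across genes that are not independent.

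**Figure D5:**
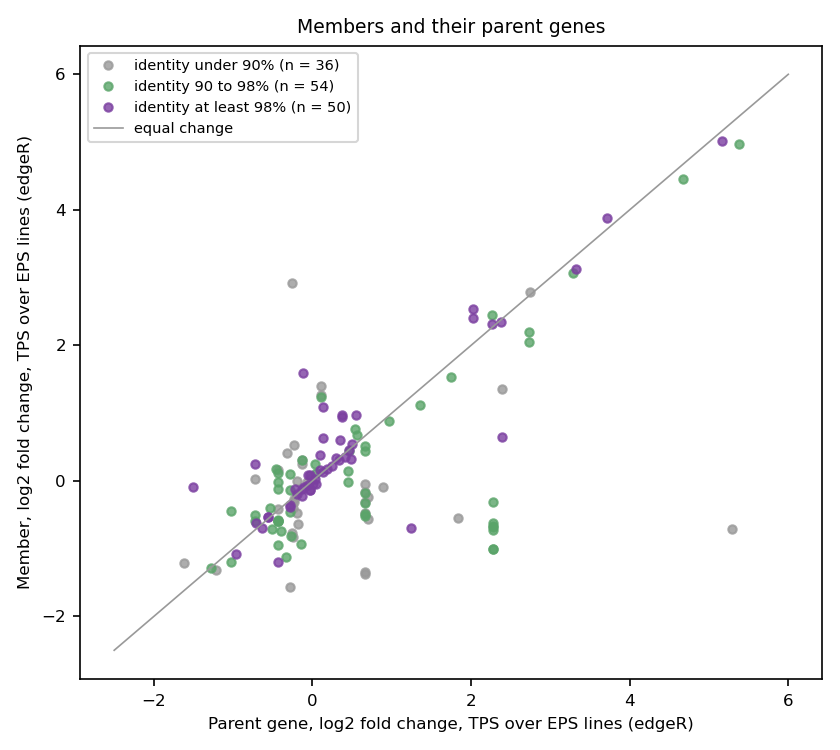
Log2 fold change of a member (vertical axis) against that of its parent (horizontal axis), TPS over EPS lines, for 140 members with at least 4 EPS counts for both genes, coloured by identity, with a line of equal change. The median distance from the line is 0.10 for members of 98% identity or more, with some members far from it (Gm14413 at -0.10 for a parent at -1.51, Gm49376 at -0.70 for a parent at 1.24), and all 7 Cdh11 copies lie below 0 at 2.28 on the horizontal axis, where the 2 Tmem181a copies near the line have a parent at 2.26.

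The ratio of a named member to its parent, as log2 of CPM plus 0.5 over CPM plus 0.5, was compared by an exact two-sided permutation test over lines, which cannot give less than p = 0.1 with 3 lines against 3. Of 36 such members, 17 had groups that did not overlap, 4 with a higher and 13 with a lower ratio in TPS lines. Where EPS lines held no count of either gene the EPS ratio is set by the added 0.5, so only 22 members with counts of both genes in every EPS line can be read. In 7 of these the groups did not overlap. The ratio of Gm49326 to Asap2 was higher by 0.94 in TPS lines. The ratios of 6820431F20Rik, 2610005L07Rik and Gm6483 to Cdh11 were lower, with differences of -3.24, -3.20 and -3.40, and those of Gm49327 and Gm49329 to Hpcal1 with differences of -1.62 and -1.14. The last was Gm28661 over mt-Co2, with a difference that rounds to -0.00.

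The threshold of 5 counts cut through genes of the same kind on both sides. Just inside it were Obox4-ps28, a copy of oocyte homeobox genes on chromosome 7 with 0 counts in EPS lines and 14, 30 and 19 in TPS lines, AC144733.1, a vomeronasal receptor copy with 19, 8 and 16 and then 13, 5 and 3 counts, and Gm49528, with 4, 8 and 3 and then 21, 5 and 19 counts. Just outside were Gm16332, with 0, 0 and 3 and then 25, 9 and 22 counts, Gm9255, with 17, 15 and 6 and then 4, 13 and 4 counts, and Fthl17-ps2, with 0, 0 and 3 and then 21, 23 and 9 counts.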

How the data were processed

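RNA-seq of polyadenylated RNA covered 3 TPS and 3 EPS lines, each in 2 technical replicates. The authors trimmed reads with fastp 0.19.7, mapped them to mm10 with STAR 2.7.3a and deposited raw counts per gene. The counting tool, annotation, strand setting and handling of reads with several matches are not given in the sources used here, so close copies may share or lose reads. Here technical replicates were summed per line. Library totals ranged from 13676051 to 21821707 counts, and the 2 replicates of each line were further apart than counting error alone allows. Their chi-square per degree of freedom was 22.3 in EPS line 3 and 9.61 in EPS line 1, and 2.58 to 3.83 in the other lines. Members took 0.842% and 1.125% of the counts in the 2 replicates of EPS line 3. Of 55401 identifiers, 55141 matched GENCODE M21 (GRCm38) after the version was removed.

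The 6 lines were compared with edgeR 4.0.16 (R 4.3.3, TMM factors, filterByExpr, quasi-likelihood test, Benjamini-Hochberg adjustment over all tested genes). On simulated counts of 17147 genes the script recovered 177 of 193 genes changed 4-fold, with 9 false calls. Parents and near-identical copies were found with blastn 2.17.0 on GENCODE transcripts, and reading frames by local alignment to the parent's coding sequence. Promoters came from RefSeq. Intervals of count ratios are exact (Clopper-Pearson, 95%) and cover counting error only.

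Members named in full were the 10 with the highest mean CPM, up to 10 with the strongest change, up or down, among calls without overlap and a mean of at least 10 counts, the highest of each family of 3 or more, and the 3 on each side of the threshold of 5 counts. The members and the lists were chosen with earlier results of these data known. Alternatives were DESeq2 1.42.0, other factors and filters, single technical runs, 12 separate libraries, a block for line number, summed copies, a stricter threshold and leaving out each line. Taking 12 separate libraries counts technical replicates as samples, so calls gained that way rest on more samples than there were lines.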

Additional observations from a re-analysis of the deposited data

How the results depend on the processing

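The count of members higher in TPS lines was 43 and lay between 31 and 53 under the other tools, factors, filters, technical runs and single lines left out, with 39 to 46 when a line was left out. It was 20 for members with a mean of at least 20 counts, and 6 for members with a mean of 5 in each group, a setting chosen after seeing the data. The count of members lower was 6 and less stable: 2 with library size alone in place of TMM, 3 with either technical run alone, 22 with 12 separate libraries, and 1 at an adjusted p under 0.01. Lower calls over all genes moved from 1282 to 1029 and 1063 with a single run and to 3610 with separate libraries. The count of members ran from 1 (without TPS line 3) to 4 (without TPS line 1) when a line was left out, and the cause was not tested. Gm13217 was the call kept in all of these. Library size alone moved the median log2 fold change over all genes from -0.00 to 0.14 and the calls over all genes from 2509 higher and 1282 lower to 2987 and 745. Parents lower numbered 6, 16 with separate libraries and 1 at an adjusted p under 0.01. Summing near-identical copies, which counts shared reads again, gave 45 higher and 4 lower. Member to parent ratios without overlap numbered 17, and 17 to 21 across the lines left out. Very low counts limit the rest: members with 3 counts in a line or fewer cannot be ordered between lines.

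With the line number as a replicate block, 40 members were higher and 3 lower, beside 1714 and 721 over all genes. The block ended the higher calls of Gm11545, Gm15753, Gm2808, Gm29721 and Gm6858. It also ended the lower calls of Gm49327, Gm5373, Gm6483 and Vmn2r-ps106. Same-numbered TPS and EPS lines did not deviate together (correlations 0.024, -0.116 and 0.0423), so the numbers were not taken as a pairing.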

Other observations

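The 2 copies of Anxa11 on chromosome 14, 100% identical to this annexin gene in the aligned part, summed to 88.0, 78.4 and 57.3 CPM in EPS lines 1 to 3 and 65.9, 60.9 and 69.6 CPM in TPS lines 1 to 3. The 2 copies of Alms1, a gene of the ciliary base, summed to 4.41, 2.97 and 4.70 CPM and then 5.05, 3.76 and 5.50 CPM. The groups overlapped in both, and none of these members was called by edgeR's quasi-likelihood test or DESeq2 or had an unadjusted p under 0.05 in edgeR.

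Other pairs leaned 1 way without a call in edgeR or DESeq2, and both Ptprj copies and 1 Usp9x copy had an unadjusted p under 0.05 in edgeR. The 2 copies of Ptprj, a receptor tyrosine phosphatase gene on chromosome 2, summed to 1.04, 1.77 and 1.31 CPM in EPS lines and 3.50, 2.25 and 2.29 CPM in TPS lines, and in each of the 2 every TPS line was above every EPS line. The 2 copies of Smok2 genes, sperm motility kinases on chromosome 17, summed to 0, 0.736 and 2.53 CPM and then 3.77, 4.82 and 2.73 CPM, with EPS line 1 at 0. The 2 copies of the deubiquitinase gene Usp9x on chromosome X summed to 35.9, 47.9 and 30.8 CPM and then 22.5, 25.4 and 31 CPM, with TPS line 3 just inside the EPS range.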
